A study of Homo sapiens with 15 samples.

Results

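The subject is the family of lipid droplet coat and assembly proteins in fat-loaded cultures labelled as the liver cell line HepG2. It has 10 members, taken by gene symbol from a deposited table of 63241 genes: the perilipins PLIN1 to PLIN5, the CIDE proteins CIDEB and CIDEC, and HILPDA, FITM2 and BSCL2. Of these, 6 passed the filter on low values that 12950 genes passed, and PLIN1, PLIN5, CIDEB and CIDEC did not. The filter asked for at least 1 TPM in at least 3 libraries, and PLIN2 met it through libraries given fatty acids alone, with no NC library above 0.495 TPM.

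RNA was sequenced from 15 cultures in 5 groups of 3 biological replicates. The FFA group received 500 µM free fatty acids to model lipid overload. The FCL, FCM and FCH groups received the same 500 µM fatty acids plus C3R at 25, 50 and 100 µM, and NC was the blank control with neither. C3R is cyanidin-3-rutinoside, a plant pigment of the anthocyanin class. HepG2 is an established human hepatoma line, all groups share it, and the study asked how C3R acts on lipid in these cells. Which fatty acids were used is not given in the sources used here, and neither is the exposure time. The labels call the replicates biological without saying whether they were grown at separate times, and the p-values cover only the variation between these 15 cultures, part of which may be technical.

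A lipid droplet is a store of neutral lipid under a single layer of phospholipid. Perilipins coat that surface and govern the access of lipases, CIDE proteins let droplets exchange lipid and enlarge, and seipin (BSCL2) and FITM2 act in the endoplasmic reticulum where droplets form. In hepatocytes PLIN2 is a main coat protein, while PLIN1, PLIN4 and CIDEC are best known from adipocytes.

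Expression is given in TPM, which divides reads by transcript length and so allows levels of different genes to be compared. TPM hold no read totals, and sequencing depth per library is therefore unknown. A log2 change below is on the log2(TPM + 1) scale, which understates the change of low genes. Alternative settings, and ranges over them, can use another pseudocount or scaling. Changes were tested with limma in 1 model over all 15 libraries, with Benjamini-Hochberg adjustment across the 12950 tested genes. Genes with an adjusted p under 0.05 are named as called. Libraries had 11268 to 12293 genes at 1 TPM or more, and correlations within groups lay between 0.966 and 0.987. The deviations of a library from the gene means followed GC content, the share of G and C bases in a transcript, to differing degrees. Spearman correlations were -0.49 to -0.02 in NC, -0.41 to -0.21 in FFA and -0.25 to 0.40 in FCL. In FCM they were 0.30 to 0.56 and in FCH 0.05 to 0.32. An alternative fit removed trends with GC content and length. The values of FCH replicate 3 carried an adjustment that no label mentions, which left it 41.6% of its deviation from the other FCH libraries in 12775 genes, and all 6 tested members were among them. Of the 6, HILPDA in FCH replicate 3 moved the most in relative terms, at 43.8 TPM as deposited and 36.5 TPM with the adjustment undone. The SD of FCH as deposited may therefore be an underestimate.

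The label of the cells did not match most of the hepatocyte markers. Of 10 hepatocyte markers, 4 passed the filter, and the list summed to between 18 and 33.8 TPM in a library. Most of that sum was APOA1 (6.18 to 14.7 TPM), SERPINA1 (6.95 to 14.2 TPM) and TF (2.71 to 6.07 TPM). ALB, the albumin gene, lay between 0.0947 and 1.67 TPM, AFP at no more than 0.130 TPM and APOB at no more than 0.0900 TPM. TTR lay at no more than 0.320 TPM and the transcription factor HNF4A at no more than 0.640 TPM. KRT7, a keratin of biliary and other duct epithelia, lay between 1626 and 2781 TPM, with KRT19 at no more than 1.60 TPM and EPCAM at no more than 0.400 TPM. The results therefore describe the libraries labelled HepG2, with no statement on hepatocytes. Markers of adipocytes, where several members are most abundant, included ADIPOQ at no more than 0.0100 TPM and RETN listed at 0 in all 15 libraries. Of 6 adipocyte markers, CFD alone passed the filter, and it rose in FFA to 53.8 ± 3.80 TPM, against 35.8 ± 1.47 TPM in NC (SD, n = 3 each). The adipocyte list summed to between 50.9 and 58.5 TPM in FFA libraries and between 35.0 and 37.5 TPM in NC libraries, and its part in the results was not tested. Macrophage markers summed to between 143 and 211 TPM in FFA libraries and between 54.4 and 63.2 TPM in NC libraries, nearly all of it CD68, a lysosomal protein. The 2 macrophage markers that passed the filter both rose. CD68 averaged 181 ± 36.3 TPM in FFA and 57.7 ± 4.43 TPM in NC (log2 change 1.61, adjusted p = 0.000289 by limma; SD, n = 3 each). CSF1R, the receptor for macrophage growth factor, averaged 3.92 ± 0.805 TPM in FFA and 1.70 ± 0.481 TPM in NC (0.87, adjusted p = 0.0464 by limma; SD, n = 3 each), a call that held in 10 of 26 alternatives. CD14 lay at no more than 0.300 TPM. CD163, C1QA, C1QB and MARCO were listed at 0 in every library. Whether this moved with the members was not tested. None of the 4 endothelial markers passed the filter. Of the 7 stellate cell markers 5 did, and none of these was called in FFA against NC.

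PLIN4 and PLIN2 were the members that fatty acids raised, and their promoter sequences are given for that reason. Each is the stretch of 250 bases before the annotated start, 5′ to 3′ on the gene's strand (minus for both), from the RefSeq promoter table on GRCh38.p14. The PLIN4 window is chr19:4518487-4518736 and the PLIN2 window is chr9:19127493-19127742. Capitals mark ACGTG, the core of the hypoxia response element, on either strand.
PLIN4: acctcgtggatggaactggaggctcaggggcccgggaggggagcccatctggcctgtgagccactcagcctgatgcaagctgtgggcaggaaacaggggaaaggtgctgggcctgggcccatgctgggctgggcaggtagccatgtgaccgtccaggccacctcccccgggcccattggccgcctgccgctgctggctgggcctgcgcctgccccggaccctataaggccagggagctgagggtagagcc
PLIN2: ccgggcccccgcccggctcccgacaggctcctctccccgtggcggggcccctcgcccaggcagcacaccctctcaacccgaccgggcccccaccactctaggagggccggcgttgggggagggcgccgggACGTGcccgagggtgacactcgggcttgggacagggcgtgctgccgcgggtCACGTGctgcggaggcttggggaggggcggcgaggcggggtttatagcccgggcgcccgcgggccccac
The PLIN2 window held 3 matches of ACGTG, starting at positions -120, -69 and -68 from the start site. The last 2 are the opposite strands of 1 CACGTG and overlap. No match was in the PLIN4 window. Over both strands, ACGTG was in 18.5% of the 35116 windows of this length, and AGGTCA, the core site of nuclear receptors, in 12.1%. The tandem pair of these cores that PPAR binds with its partner RXR, known as DR1, was in 6 windows in its exact form, or 0.0171%. Neither was in any of the 13 windows that the table gives for 9 members, and apart from PLIN2 the ACGTG core was in 1 BSCL2 window alone. These matches are letters in a window and say nothing about binding. HILPDA had no window in the table.

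Fatty acids raised PLIN4 and PLIN2 against NC, and no member was called lower. These were 2 of the 6 members that passed the filter, a count that the filter partly sets, because PLIN2 passed it only where it was high. Without a filter all 10 members were tested, and again 2 were called. That fit called 668 genes in all, from a larger set whose size is not given here. Among the 12950 genes that passed the filter, 7.37% were called in this comparison, 5.47% higher and 1.91% lower.

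PLIN4 (ENSG00000167676) encodes perilipin 4, a long perilipin rich in amphipathic repeats that coats small or newly forming droplets. It stood at 31.3, 27.4 and 29.6 TPM in FFA replicates 1 to 3, against 3.88, 5.20 and 4.43 TPM in NC replicates 1 to 3. Every FFA library was above every NC library by a wide gap. Its mean was 29.4 ± 1.96 TPM in FFA and 4.50 ± 0.663 TPM in NC (SD, n = 3 each). The log2 change was 2.47 (SE 0.15, 95% interval 2.16 to 2.78, adjusted p = 2.53e-07 by limma). In bulk RNA, more cells that express a gene and more RNA per cell cannot be told apart. PLIN4 was called in all 27 alternative settings, with log2 changes between 2.33 and 2.69. HDGFL2 overlaps PLIN4 on the opposite strand in GENCODE release 29, and the sources used here do not say whether counting used the strand. HDGFL2 averaged 59.8 TPM in FFA and 53.9 TPM in NC, a log2 change of 0.15 (adjusted p = 0.577 by limma).

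PLIN2 (ENSG00000147872), the perilipin that most cell types put on their droplets and that is degraded when it is not bound to lipid, rose at a very low level. FFA replicates 1 to 3 had 1.60, 1.57 and 2.45 TPM, against 0.235, 0.305 and 0.495 TPM in NC replicates 1 to 3. The groups did not overlap, and FFA replicate 3 was the highest library. PLIN2 averaged 1.87 ± 0.50 TPM in FFA and 0.345 ± 0.135 TPM in NC (SD, n = 3 each). The log2 change was 1.08 (SE 0.23, 95% interval 0.60 to 1.57, adjusted p = 0.00873 by limma). Without a filter the adjusted p was 0.0314 by limma, and this is the value to read, as PLIN2 had to be higher in libraries given fatty acids to pass the filter. The size depends on the pseudocount at this level, and with a pseudocount of 0.1 TPM the log2 change was 2.16. Without FFA replicate 3 it was 0.94 and the call was lost (adjusted p = 0.0553 by limma). PLIN2 remained below 3 TPM in all 15 libraries, with 2.92 TPM in FCL replicate 3 as the highest value.

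PLIN3 (ENSG00000105355), a perilipin that is held in the cytosol and moves onto growing droplets, was by far the most abundant member. It had 303, 282 and 299.9 TPM in FFA replicates 1 to 3, against 263, 264 and 261 TPM in NC replicates 1 to 3. All FFA libraries were above all NC libraries, which 19.7% of all tested genes also were. The log2 change was 0.17 (SE 0.12, 95% interval -0.09 to 0.42) and did not pass the test (adjusted p = 0.474 by limma).

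The sum of the 5 perilipins averaged 327 ± 13.4 TPM in FFA and 268 ± 1.93 TPM in NC (SD, n = 3 each). PLIN3 held 90.3 ± 0.262% of that sum in FFA and 98.1 ± 0.226% in NC (SD, n = 3 each). PLIN4 made up 9.00 ± 0.276% in FFA and 1.68 ± 0.238% in NC (SD, n = 3 each). In the FCL, FCM and FCH libraries PLIN4 held between 7.21% and 11.3% of the sum, above every NC library.

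FITM2 (ENSG00000197296), an endoplasmic reticulum protein needed for normal droplet budding, had 9.37, 8.43 and 8.62 TPM in FFA replicates 1 to 3, against 6.27, 6.99 and 7.17 TPM in NC replicates 1 to 3. The groups did not overlap, but the log2 change of 0.33 (SE 0.13) did not pass the test (adjusted p = 0.157 by limma). BSCL2 (ENSG00000168000), which encodes seipin, a ring-shaped protein at contacts between droplets and the endoplasmic reticulum, had 33.0, 31.0 and 32.9 TPM in FFA replicates 1 to 3, against 39.6, 41.6 and 38.2 TPM in NC replicates 1 to 3. Here the FFA libraries lay below all NC libraries, as they did for 9.95% of tested genes. Its log2 change was -0.29 (SE 0.13, adjusted p = 0.204 by limma).

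BSCL2 is uncertain in these data, because the annotated read-through gene HNRNPUL2-BSCL2 contains it on the same strand and the counting can divide reads between them. HNRNPUL2-BSCL2 averaged 19.7 ± 2.28 TPM in FFA and 11.3 ± 1.92 TPM in NC (SD, n = 3 each), a log2 change of 0.75 that did not pass the test (adjusted p = 0.0789 by limma). The sum of both was 52.0 ± 3.45 TPM in FFA and 51.1 ± 3.32 TPM in NC (SD, n = 3 each), so the summed values differed by less than the spread between libraries.

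HILPDA (ENSG00000135245) encodes a small droplet protein that inhibits the lipase ATGL and is known as a target of both hypoxia and fatty acid signalling. In GENCODE release 29 it overlaps AC010655.4 (0.297 to 6.07 TPM over the libraries) and AC010655.2 (at most 0.51 TPM) on the same strand, so the division of reads between them is uncertain. FFA replicates 1 to 3 had 58.0, 42.2 and 54.1 TPM, against 42.3, 44.1 and 45.1 TPM in NC replicates 1 to 3. FFA replicate 2 was below every NC library, so the groups overlapped. The log2 change was 0.21 (SE 0.18, 95% interval -0.17 to 0.59, adjusted p = 0.543 by limma).

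**Figure D1:**
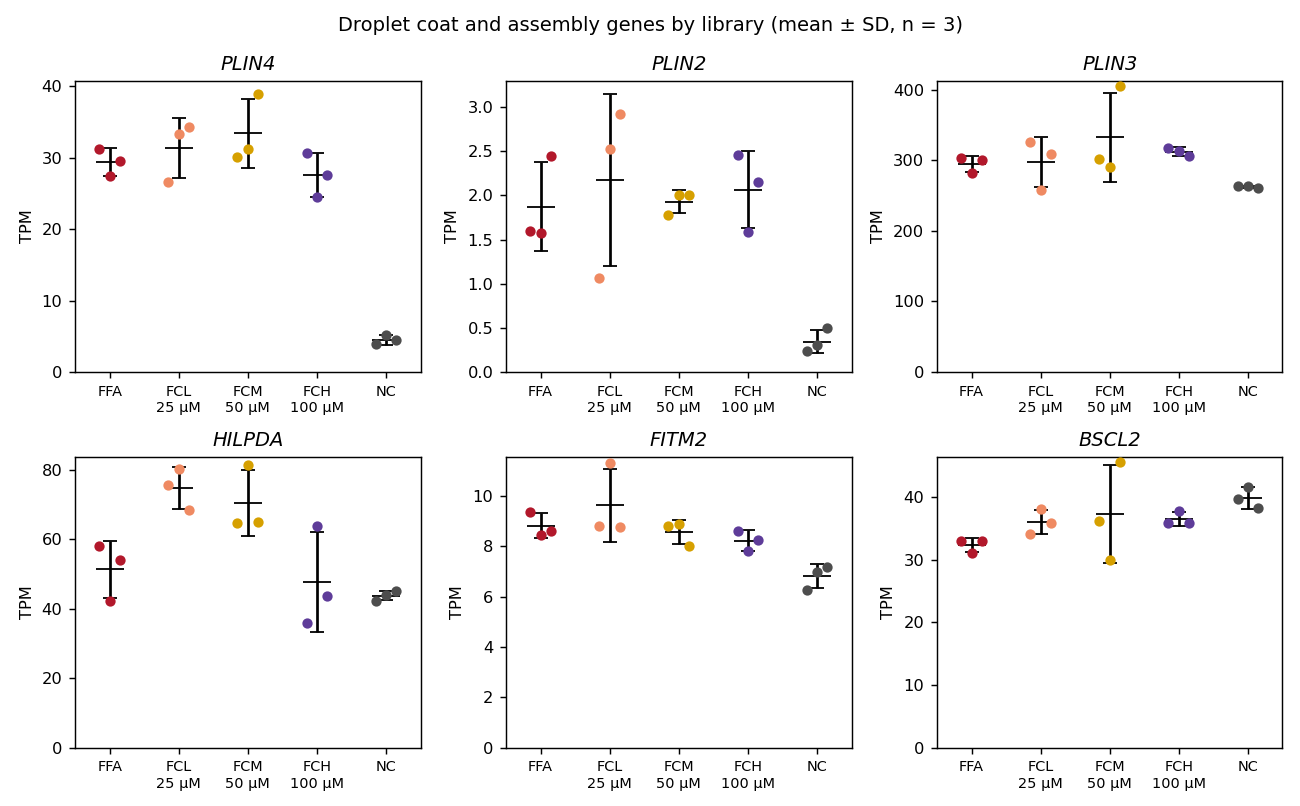
TPM (y axis, linear, from 0) of the 6 tested droplet genes in each library, by group along the x axis. Points are libraries, and bars are the mean ± SD of 3 libraries. PLIN4 and PLIN2 are higher in every library given fatty acids than in every NC library, whereas HILPDA is highest in FCL and FCM, at 68.4 to 80.4 TPM and 64.8 to 81.4 TPM.

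The other 4 members stayed below 1 TPM in every library and were tested only where no filter was applied. PLIN1, the perilipin of adipocyte droplets, had 0.370, 0.280 and 0.320 TPM in FFA replicates 1 to 3, against 0.180, 0.0800 and 0.110 TPM in NC replicates 1 to 3. These values did not overlap, and without a filter the log2 change was 0.24 (SE 0.06, adjusted p = 0.0857 by limma). PEX11A, a peroxisome division gene that overlaps PLIN1 on the same strand in GENCODE release 29, averaged 9.99 TPM in FFA and 5.34 TPM in NC, a log2 change of 0.79 (adjusted p = 0.00241 by limma), so reads assigned to PLIN1 are uncertain.

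PLIN5, which ties droplets to mitochondria in oxidative tissues, had 0.140, 0.120 and 0.150 TPM in FFA replicates 1 to 3, against 0.0900, 0.05 and 0.0800 TPM in NC replicates 1 to 3, and was listed at 0 in FCM replicate 1. CIDEB, the CIDE protein of hepatocytes, was listed at 0 in FFA replicates 1 and 2 with 0.580 TPM in replicate 3, against 0.180 TPM in NC replicate 2 and 0 in NC replicates 1 and 3. CIDEC, which drives the fusion of droplets in adipocytes, had 0.340, 0.180 and 0.440 TPM in FFA replicates 1 to 3, against 0, 0.360 and 0.150 TPM in NC replicates 1 to 3. Values this low do not separate the groups for CIDEB and CIDEC. CIDEB also overlaps NOP9 and LTB4R2 on the opposite strand. Without a filter, none of these 3 genes was called in FFA against NC (adjusted p = 0.903, 0.841 and 0.74 for PLIN5, CIDEB and CIDEC by limma). In the 9 libraries given C3R, PLIN1 lay between 0.0800 and 0.350 TPM, PLIN5 between 0 and 0.470, CIDEB between 0 and 0.380 and CIDEC between 0 and 0.590 TPM. PLIN1 in FCM, at 0.140, 0.0800 and 0.240 TPM in replicates 1 to 3, was below all FFA libraries. That change was -0.20 without a filter (SE 0.06, adjusted p = 0.23 by limma).

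**Figure D2:**
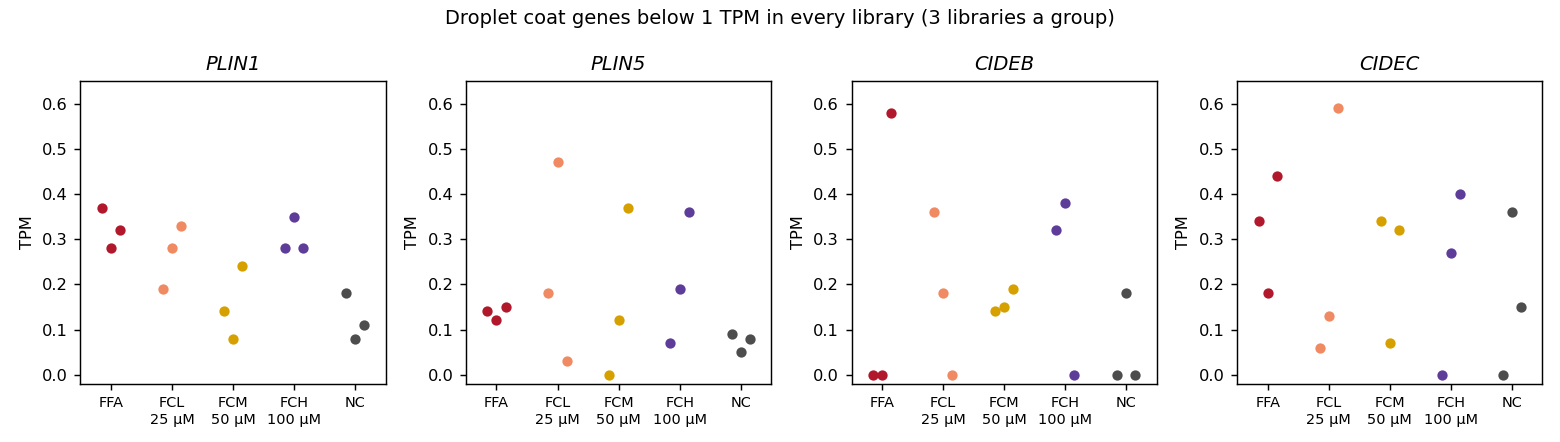
TPM (y axis) of PLIN1, PLIN5, CIDEB and CIDEC in each library, by group along the x axis, with 1 point per library. No library reaches 0.65 TPM, and the highest value is 0.590 TPM for CIDEC in FCL replicate 3.

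By level in FFA, the tested members ran from PLIN3 at 295 ± 11.3 TPM through HILPDA at 51.4 ± 8.23, BSCL2 at 32.3 ± 1.17, PLIN4 at 29.4 ± 1.96 and FITM2 at 8.80 ± 0.497 to PLIN2 at 1.87 ± 0.50 TPM (SD, n = 3 each). BSCL2 and PLIN4, neighbours in that order, overlapped in FFA. In NC the order was the same except that PLIN4, at 4.50 ± 0.663 TPM, stood below FITM2, at 6.81 ± 0.476 TPM (SD, n = 3 each).

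The C3R groups were set against NC to see which members differed from untreated cells with both agents present. These comparisons share the NC libraries with each other and with FFA against NC. Called higher were 3 of the 6 members that passed the filter in FCL, 3 in FCM and 2 in FCH, with PLIN2 among them each time, and none was called lower. Without a filter, over all 10 members, the numbers were 4, 2 and 2, as FITM2 was added in FCL and HILPDA was lost in FCM. The fit without a filter called 794, 955 and 444 genes in all in FCL, FCM and FCH, and the shares that follow are of filtered genes. Among all tested genes 9.07% were called in FCL against NC, 13.0% in FCM against NC and 5.00% in FCH against NC. Those called higher were 6.51%, 6.34% and 3.02% of the tested genes in FCL, FCM and FCH.

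PLIN4 had 26.6, 33.4 and 34.3 TPM in FCL replicates 1 to 3. It had 30.1, 31.3 and 39.0 TPM in FCM replicates 1 to 3, and 30.7, 24.5 and 27.6 TPM in FCH replicates 1 to 3. All 9 libraries were above the highest NC value of 5.20 TPM. Libraries also stood wholly above NC for 16.7% of all tested genes in FCL, 14.5% in FCM and 19.1% in FCH. The log2 changes against NC were 2.56 in FCL, 2.64 in FCM and 2.38 in FCH (SE 0.15 each; adjusted p = 1.57e-07, 9.63e-08 and 4.38e-07 by limma). Across all alternatives the FCH value was between 2.04 and 2.59 and always called.

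PLIN2 had 1.07, 2.53 and 2.92 TPM in FCL replicates 1 to 3. In FCM replicates 1 to 3 it had 1.78, 2.01 and 2.00 TPM, and in FCH replicates 1 to 3 it had 2.46, 1.59 and 2.15 TPM. FCL replicate 1 was the lowest library given fatty acids and still above all NC libraries. The log2 changes against NC were 1.19 in FCL, 1.12 in FCM and 1.18 in FCH (SE 0.23 each; adjusted p = 0.00452, 0.00601 and 0.00682 by limma). Without a filter the adjusted p-values were 0.018, 0.023 and 0.0265 by limma. In a fit on FCL and NC alone the FCL call was lost (adjusted p = 0.0561 by limma). A further fit had a term for the libraries that the labels number 12 to 15, which are FCM replicate 3 and all of FCH. There the FCH change was 1.13 (SE 0.42) and not called (adjusted p = 0.267 by limma). The term holds every FCH library and is told apart from the FCH group only through FCM replicate 3. Without the term the SE was 0.23.

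HILPDA was the third member called, in FCL and FCM and not in FCH. It had 75.7, 80.4 and 68.4 TPM in FCL replicates 1 to 3. In FCM replicates 1 to 3 it had 64.8, 81.4 and 65.1 TPM, and in FCH replicates 1 to 3 it had 35.8, 63.8 and 43.8 TPM. Every FCL and FCM library was above the highest FFA library (58.0 TPM) and the highest NC library (45.1 TPM), while FCH ran from below to above both groups. The log2 changes against NC were 0.75 in FCL (adjusted p = 0.0165 by limma), 0.66 in FCM (adjusted p = 0.0256) and 0.08 in FCH (adjusted p = 0.841; SE 0.18 each).

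These 2 HILPDA calls were close to the threshold. The FCL call was lost without NC replicate 1 (adjusted p = 0.0564 by limma), without FCL replicate 2 (0.0565) and with quantile normalization (0.0642). The FCM call was lost without any 1 of the NC replicates 1 to 3 (adjusted p = 0.0533, 0.0657 and 0.0698 by limma), without FCM replicate 2 (0.0726), with no filter (0.071) and with quantile normalization (0.0759).

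The remaining members did not pass in any C3R group against NC. PLIN3 averaged 297 ± 35.5 TPM in FCL, 333 ± 62.6 in FCM and 312 ± 6.23 in FCH, against 263 ± 1.63 TPM in NC (SD, n = 3 each). Its FCM mean rested on replicate 3 at 405 TPM, with 302 and 291 TPM in replicates 1 and 2, and the log2 change was 0.32 (adjusted p = 0.0873 by limma). With the trends in GC content and length removed, the PLIN3 change in FCM was 0.14. FITM2 averaged 9.62 ± 1.44 TPM in FCL, 8.57 ± 0.486 in FCM and 8.22 ± 0.411 in FCH, against 6.81 ± 0.476 TPM in NC (SD, n = 3 each). Its FCL change of 0.44 just missed the threshold (adjusted p = 0.0523 by limma), and the adjusted p was 0.15 in FCM and 0.329 in FCH. BSCL2 averaged 36.0 ± 1.96 TPM in FCL, 37.2 ± 7.85 in FCM and 36.5 ± 1.12 in FCH, against 39.8 ± 1.69 TPM in NC (SD, n = 3 each), with adjusted p between 0.545 and 0.644 by limma.

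Set against FFA, which asks what C3R changed in cells already given fatty acids, no member was called at any dose. The 3 comparisons share the FFA libraries. Of all tested genes 0.00772% were called in FCL against FFA, 1.90% in FCM and 0.193% in FCH, or 1, 246 and 25 genes. At an unadjusted p under 0.05 there were 667, 2477 and 1946 genes. These counts were unstable. For FCM against FFA the number called fell to 1 when FFA replicate 1 was left out and to 2 when FFA replicate 3 or FCM replicate 2 was. Omitting FCM replicate 3 gave 35, and omitting NC replicate 1 gave 600. For FCH against FFA it was 1 to 2 when any 1 FCH library was left out, 2 or 3 on omitting FFA replicate 3 or FFA replicate 1, and 190 on omitting FCM replicate 3. Fits on the compared groups alone called 1 gene in FCM and 740 in FCH, and without the filter on low values 11 and 12 genes were called. With array weights it was 873, 3964 and 3397 in FCL, FCM and FCH, and no member was called against FFA under any of these settings.

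For PLIN4 and PLIN2, the libraries of each C3R group overlapped those of FFA. The PLIN4 log2 change against FFA was 0.08 in FCL (95% interval -0.23 to 0.40), 0.17 in FCM (-0.14 to 0.49) and -0.09 in FCH (-0.41 to 0.22). For PLIN2 it was 0.10 in FCL (95% interval -0.38 to 0.59), 0.04 in FCM (-0.44 to 0.53) and 0.10 in FCH (-0.39 to 0.58). Adjusted p-values were between 0.565 and 0.946 by limma. The intervals allow changes in either direction, and a missed threshold does not show that C3R left these genes as they were.

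HILPDA had the largest estimates of the members in FCL and FCM, though neither passed. Its log2 change against FFA was 0.54 in FCL (95% interval 0.16 to 0.92), 0.45 in FCM (0.07 to 0.83) and -0.13 in FCH (-0.51 to 0.25). The adjusted p-values were 0.901, 0.178 and 0.787 by limma, and the unadjusted ones for FCL and FCM were 0.00822 and 0.0228. Both FCL and FCM libraries were above all FFA libraries, as were 3.37% of tested genes in FCL and 4.53% in FCM. For PLIN3 the log2 changes against FFA were between 0.01 and 0.16, for FITM2 between -0.09 and 0.11 and for BSCL2 between 0.15 and 0.18, with adjusted p-values from 0.484 to 0.997 by limma.

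Between doses, HILPDA was lower in FCH than in FCL by a log2 change of -0.67 (SE 0.18, 95% interval -1.05 to -0.29) and than in FCM by -0.58 (SE 0.18, -0.96 to -0.20), with no overlap of libraries in either. Neither passed the test across all genes (adjusted p = 0.129 and 0.26 by limma), where 0.0772% and 0.0154% of genes were called. Groups did not overlap, with FCH the lower, for 13.8% of genes against FCL and 7.37% against FCM. With the adjustment of FCH replicate 3 undone the changes were -0.76 and -0.67 (adjusted p = 0.154 and 0.236 by limma). With array weights both were called, also with the adjustment undone (adjusted p = 0.0246 and 0.0458 by limma). Array weights called 5067 and 8211 of all 12950 tested genes in these comparisons, and 1582 and 971 with the adjustment undone. The slope over dose in the 12 libraries given fatty acids was -0.27 per 100 µM for HILPDA (95% interval -0.81 to 0.28). None of the 6 members passed in that trend, which called 0.371% of all genes.

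**Figure D3:**
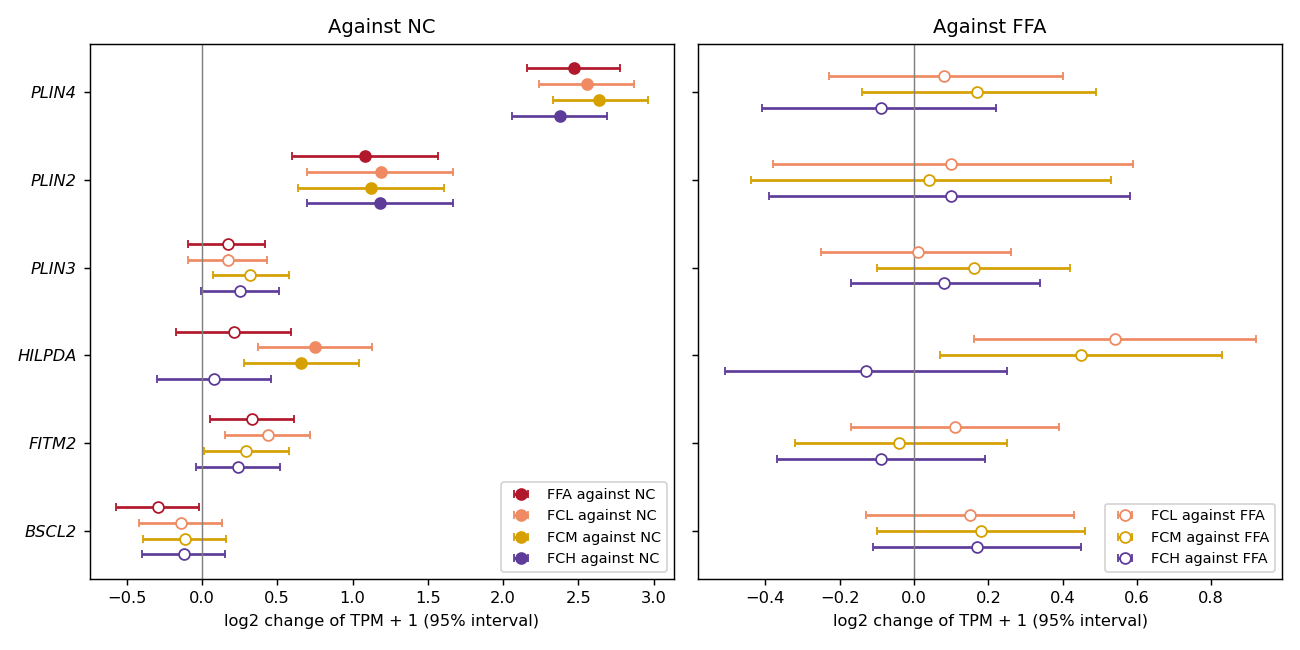
Log2 changes of TPM + 1 (x axis) for the 6 tested members (y axis), against NC on the left and against FFA on the right. Points are limma estimates, lines are 95% intervals, and filled points have an adjusted p under 0.05. PLIN4 and PLIN2 are filled in all 4 comparisons with NC and HILPDA in FCL and FCM, and no point is filled against FFA.

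Other genes of droplet biology were read from lists of non-members. For each list below, the shares called over all tested genes in FFA against NC were 5.47% higher and 1.91% lower. Called higher against NC were 6.51% in FCL, 6.34% in FCM and 3.02% in FCH. Against FFA, 1.90% were called in either direction in FCM and 0.193% in FCH. The counts of 1 in the droplet surface and lipolysis lists in FFA against NC are near these shares. Of 23 tested droplet surface and assembly genes, 1 rose and 1 fell in FFA against NC, with a median log2 change of 0.05 against 0.06 over all genes. NSDHL, a sterol synthesis enzyme found on droplets, averaged 30.0 ± 2.38 TPM in FFA and 20.8 ± 0.682 TPM in NC (SD, n = 3 each; log2 change 0.51, adjusted p = 0.0295 by limma). DHRS3, a retinal reductase that also sits on droplets, averaged 33.8 ± 2.71 TPM in FFA and 48.7 ± 6.28 TPM in NC (SD, n = 3 each; log2 change -0.51, adjusted p = 0.0226 by limma). These calls of NSDHL and DHRS3 held in 20 and 24 of 27 alternatives. In FCL against NC 4 rose, LDAF1, ESYT1, NSDHL and LSS, and DHRS3 fell. Of these, the calls of ESYT1 and LSS held in 14 and 13 of 27 alternatives. LDAF1, the partner of seipin, had a log2 change of 0.71 in FCL (adjusted p = 0.00529 by limma) and 0.50 in FCM (adjusted p = 0.0305 by limma) against NC. Its FCL call held in 27 of 27 alternatives and its FCM call in 17 of 27.

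Of 14 tested lipolysis genes, 1 rose in FFA against NC and none fell. LIPE, the hormone-sensitive lipase that perilipins regulate, averaged 3.95 ± 0.904 TPM in FFA, 4.13 ± 0.848 in FCL, 3.99 ± 1.43 in FCM and 1.99 ± 0.757 in FCH, against 0.792 ± 0.405 TPM in NC (SD, n = 3 each). It was called in FFA (log2 change 1.47, adjusted p = 0.00221 by limma), FCL and FCM against NC, and not in FCH (0.73, adjusted p = 0.112). With an NC mean below 1 TPM, LIPE could pass the filter only through libraries given fatty acids, where it was high. The FFA, FCL and FCM calls each held in 26 of 26 alternatives, among them the fit without the filter. The adjusted p-values there were at most 0.0139, 0.0156 and 0.0295 by limma. FCH against FFA gave -0.74 (adjusted p = 0.182 by limma). The median log2 change of the list in FFA against NC was 0.14. LIPA, the lysosomal acid lipase, fell along the C3R dose, with a slope of -0.92 per 100 µM (SE 0.18, adjusted p = 0.0481 by limma). That call held in 7 of 23 alternatives and was lost without any 1 of the FCH replicates, without FFA replicate 1 or 3, and with the replicate block. The whole trend called 48 genes, 0 without FCH replicate 1 or 3 and 3 with the replicate block.

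Of 12 tested genes of triglyceride and sterol ester synthesis, 2 rose in FFA and none fell, with a median of 0.20. AGPAT2, which makes phosphatidic acid, averaged 114 ± 10.3 TPM in FFA and 64.2 ± 5.94 TPM in NC (log2 change 0.82, adjusted p = 0.000413 by limma; SD, n = 3 each). DGAT2, which catalyses the last step to triglyceride, averaged 3.80 ± 0.372 TPM in FFA and 1.98 ± 0.366 TPM in NC (0.69, adjusted p = 0.0158 by limma; SD, n = 3 each). The DGAT2 call held in 22 of 26 alternatives. None of 5 tested genes of very-low-density lipoprotein assembly was called in FFA against NC.

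PPAR targets, genes switched on by the fatty acid receptors of that name, had the most called genes of these lists. Of 20 tested, 13 rose and none fell in FFA against NC, with a median of 0.89. That direction was known from earlier results when the list was chosen. FABP3, ANGPTL4, PDK4 and FGF21 had the smallest p-values together with log2 changes from 2.73 to 4.83, against 2.47 for PLIN4. In FCL 13 rose against NC, in FCM 13 and in FCH 11. Against FFA, 1 fell in FCM, PDK4, a kinase that restrains glucose oxidation, at -1.15 (adjusted p = 0.0413 by limma). That call held in 12 of 27 alternatives.

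Hypoxia-responsive genes are given because HILPDA is known as one. Of 22 tested, 3 rose in FFA against NC, ADM (log2 change 1.45), NDRG1 (1.01) and VEGFA (0.82), and DDIT4 fell (-1.05), with a median of 0.20 over the list. ADM, a vasodilator peptide, averaged 144 ± 29.9 TPM in FFA, 175 ± 26.2 in FCL, 239 ± 68.1 in FCM and 230.4 ± 17.3 in FCH, against 51.4 ± 6.43 TPM in NC (SD, n = 3 each). Against FFA, SLC2A1, a glucose transporter, was called in FCM (0.82, adjusted p = 0.0206 by limma), and DDIT4, an inhibitor of mTORC1, in FCM (1.34) and FCH (0.82). The SLC2A1 call held in 20 of 27 alternatives, that of DDIT4 in 26 in FCM and in 20 in FCH. For ADM the FCH mean lay within 1 SD of the FCM mean, and HILPDA itself was not called in these comparisons.

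**Figure D4:**
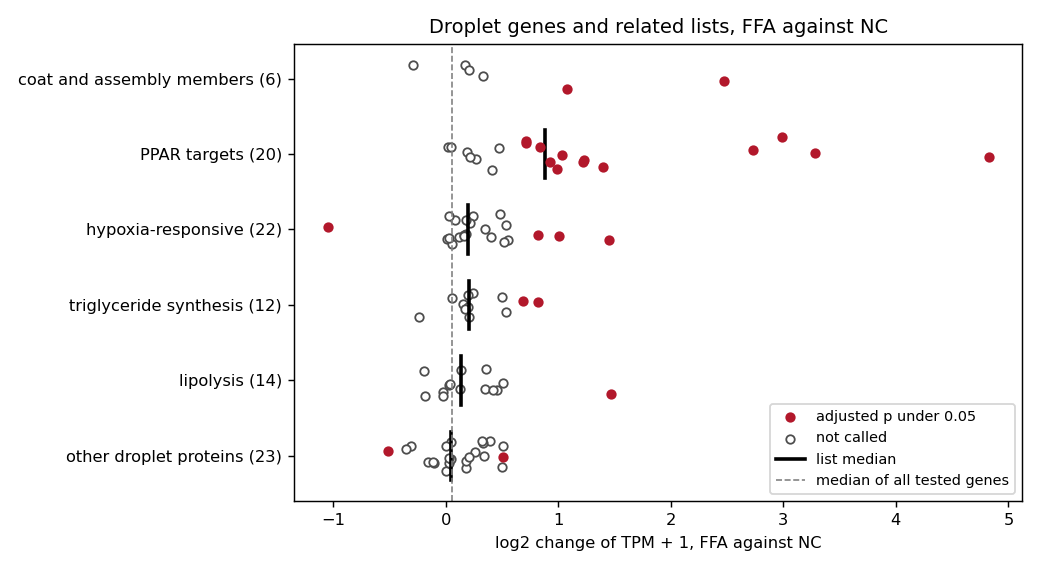
Log2 change of TPM + 1 in FFA against NC (x axis) for each tested gene of 6 lists (y axis, number of tested genes in brackets). Filled points have an adjusted p under 0.05, the heavy line is the median of each list of non-members, and the dashed line is the median of all tested genes, 0.06. PLIN4 at 2.47 and PLIN2 at 1.08 lie among the raised PPAR targets, and the other 4 members lie between -0.29 and 0.33.

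Across the 15 libraries, which share their 5 groups, PLIN2 and PLIN4 had a Pearson r of 0.92 on the log2(TPM + 1) scale. With PLIN4 and PLIN2, FITM2 had 0.79 and 0.77, PLIN3 had 0.61 and 0.46, and HILPDA had 0.50 and 0.38. For BSCL2 the values were -0.38 and -0.34. The genes most like PLIN4 were ANGPTL4 (r = 0.990), ECH1 (0.989) and CTSD (0.987). Those most like PLIN2 were RAB3IL1 (0.937), TNFRSF14 (0.935) and OSR2 (0.929). These values are descriptions.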

How the data were processed

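RNA sequencing of 15 cultures was read from 1 deposited table of TPM. Per the labels, the authors selected messenger RNA on oligo(dT), made stranded libraries, aligned reads with HiSat2 to an Ensembl human genome and quantified them with RSEM; versions and strand use were not stated there. The deposited TPM of 12775 genes carried a mean-only empirical Bayes adjustment with FCH replicate 3 alone, which was recovered from the values, re-applied to within 0.00495 TPM, and undone as an alternative. Column sums were 1001311 to 1001313 TPM, and 990018 TPM for FCH replicate 3.

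Genes with at least 1 TPM in at least 3 libraries were tested as log2(TPM + 1) with limma 3.58.1 (R 4.3.3; empirical Bayes with trend), two-sided, with 1 mean per group over all 15 libraries, or with a slope on dose over the 12 libraries given fatty acids. In simulated data for FFA against NC with 12950 genes the fit was checked for the recovery of known changes. Members and lists were chosen with earlier results of these data known. Named from the lists were up to 4 called genes with the smallest p in FFA against NC, and for each called member the 3 genes with the highest correlation. SLC2A1, LDAF1, ESYT1, LSS, LIPA, and PDK4 and DDIT4 in the C3R comparisons were named after their values were seen. Overlapping genes came from GENCODE release 29 and promoters from RefSeq; promoter coordinates are from that table, as the deposited table names no build. Alternatives were another pseudocount, filters, scalings, weights, terms and each library left out. Array weights with the adjustment undone were chosen after seeing the data.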

Additional observations from a re-analysis of the deposited data

How the results depend on the processing

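PLIN4 was called against NC in all 4 comparisons under every alternative run. The number of members called in FFA against NC (2) was 1 with a minimum mean of 5 TPM, which does not test PLIN2, 4 with array weights and 4 with array weights and the adjustment undone. It was 3, of which 1 was called lower, with median-of-ratios rescaling, quantile normalization and the GC and length trend removed. In FCL against NC (3) it was 5 with either form of array weights and 2 with the compared groups alone. It was 4 with a pseudocount of 0.1, no filter, median-of-ratios rescaling and the term for the libraries numbered 12 to 15. Quantile normalization also gave 4 in FCL, of which 1 was called lower. In FCM against NC (3) it was 6 with array weights, 5 with the adjustment also undone, and 2 with no filter or a minimum mean of 5 TPM. In FCH against NC (2) it was 1 with a minimum mean of 5 TPM, 5 with array weights and 1 with the term for the libraries numbered 12 to 15. It was 3 in FCH with the compared groups alone and with array weights and the adjustment undone. Between doses (0) it was 7 with array weights, where FCH replicate 3 has its reduced spread, and 2 with the adjustment also undone. Leaving out each library gave 1 to 2 calls in FFA against NC, 2 to 4 in FCL, 2 to 3 in FCM and 2 in FCH against NC, and 0 in each comparison with FFA, between doses and in the slope. Array weights raised the counts over all genes too, to 2574, 4780, 5862 and 5115 in FFA, FCL, FCM and FCH against NC. Between doses they were 3823 in FCM against FCL, 5067 in FCH against FCL and 8211 in FCH against FCM, of 12950. With the adjustment also undone they were 2370, 4584, 3920 and 2376 against NC, and 733, 1582 and 971 between doses. Apart from fewer genes tested, the cause of the changes in member counts was not tested.

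PLIN2 changed more with a pseudocount of 0.1, by 2.16, 2.28, 2.23 and 2.30 in FFA, FCL, FCM and FCH against NC. BSCL2 in FFA against NC was called lower with median-of-ratios rescaling (-0.38, adjusted p = 0.0499 by limma), quantile normalization (-0.44), GC content and length trends removed (-0.36) and both array weights (-0.31). FITM2 in FCL against NC was called in 8 of 12 alternatives other than leaving out a library. Turns of direction were looked for only where a member was called in a comparison in at least 1 setting. That leaves out every comparison with FFA and the slope. These directions turned, none of them called: BSCL2 in FCM against NC without FCM replicate 2 (0.03, with -0.26 as the other end of its leave-one-out range), PLIN3 in FCH against NC (-0.20) and FITM2 in FCH against FCM (0.03) with the term for libraries 12 to 15, and PLIN2 in FCM against FCL with median-of-ratios rescaling (0.02), quantile normalization (0.08), the GC and length trend removed (0.04), without FCL replicate 2 (0.04) and without FCL replicate 3 (0.12), and in FCH against FCM with quantile normalization (-0.07) and without FCH replicate 1 (-0.04, with 0.17 without FCH replicate 2).

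Libraries with the same replicate number did not deviate together more than others did. Correlations ran from -0.35 to 0.15 in 30 pairs with the same number and from -0.30 to 0.34 in 60 pairs with different numbers. For 0 of 15 libraries did the best match in another group have the same number. This cannot show whether the numbers mark cultures grown together, which the labels do not say. With the replicate block the counts were 2, 3, 3 and 2 against NC and 0 elsewhere, and no member's call changed. TPM give no depth, so how far depth limits PLIN1, PLIN5, CIDEB and CIDEC is unknown.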
